A study of Mus musculus with 6 samples.

Results

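Mitochondria fold and clear their own proteins with a small set of nuclear-encoded chaperones, proteases and scaffold proteins, and 10 of these genes were followed here in mouse neural stem cells with and without Pml. They were the prohibitins Phb and Phb2, the chaperonin pair Hspd1 and Hspe1, the chaperones Hspa9 and Trap1, and the protease genes Lonp1, Clpp, Clpx and Afg3l2. The genes were chosen by name, as genes linked to the mitochondrial unfolded protein response, and all 10 had a row among the 24421 gene symbols of the count table. The cells were primary neural stem cells from the brains of mouse embryos at stage E13.5, grown as neurospheres in 20 ng/ml epidermal growth factor, 20 ng/ml fibroblast growth factor 2 and 20% oxygen, and lysed on day 4 after dissociation. Both genotypes had the same culture conditions, and all libraries carry 1 batch date. There were 3 WT libraries and 3 libraries labelled PML knockout (Pml-/- in the series design). The labels name neither the deleted part of Pml nor the mouse strain, and they do not say whether the replicates came from separate embryos or cultures. A p-value here speaks only of the spread among these 6 libraries, and that spread may be technical. Libraries were made with a 3′ tag kit, which reads the end of polyadenylated transcripts, so a count stands for transcripts rather than their length, and levels are compared between libraries and not between genes. In bulk RNA, fewer cells of a type and less RNA per cell cannot be told apart.

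Proteins enter the mitochondrial matrix unfolded. Hsp70 (Hspa9) pulls them in, the barrel of Hsp60 (Hspd1) with its lid Hsp10 (Hspe1) folds them, and AAA+ proteases, ATP-driven machines that unthread and cut proteins, remove those that fail. Prohibitins form ring-shaped scaffolds in the inner membrane and hold the membrane-bound m-AAA protease, which contains Afg3l2. When misfolded proteins collect, cells can raise these chaperones and proteases through transcription factors such as ATF5, ATF4 and CHOP, a programme named the mitochondrial unfolded protein response. In mammals some of these genes are also known targets of heat shock factor 1 and of MYC-family factors.

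The promoter stretches below were picked because they hold binding letters of those factors, and not by the size or test of a difference. RefSeq windows on GRCm38.p6, the assembly that mm10 names, ran from 250 bases before to 50 after each gene start. Of the 10 genes, 8 had one, and Hspd1 had 2. Hspa9 and Afg3l2 had none. Hspd1 and Hspe1 lie head to head on chromosome 1, on opposite strands, and their first exons overlap. Capitals mark the motif, and every sequence is written 5′ to 3′ on the strand of the gene named.
Hspe1, chr1:55088053-55088082, plus strand: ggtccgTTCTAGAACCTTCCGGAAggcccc
Hspd1, chr1:55088308-55088333, minus strand: ccggctgggaCACGTGaaaaggccgc
Phb, chr11:95666715-95666740, plus strand: gaggaataggCACGTGcatatattac
Lonp1, chr17:56626924-56626949, minus strand: cgagcgtcatCACGTGcgcaaacggg
The Hspe1 stretch carries 4 heat shock units in a row (TTCNNGAA, any 2 bases, TTCNNGAA again), starting 89 bases before the Hspe1 start. The same letters lie in an exon, in its untranslated part, of an annotated Hspd1 transcript. They also lie in the second Hspd1 window, 144 bases before the downstream Hspd1 start. That run was present in 5 of 32851 windows of all genes (0.0152%), among them the Hspe1 window and this Hspd1 window, which share 1 locus. TTCNNGAA alone was in 8.52% of all windows. Outside that run it lay 148 bases before the Phb start and at base 34 from the Clpp start. The E-box CACGTG, the letters bound by MYC-family factors, lay 80 bases before the upstream Hspd1 start, 232 before the Phb start and 36 before the Lonp1 start, and in 7.15% of all windows. The Hspd1 E-box falls in an untranslated part of an Hspe1 exon, and those of Phb and Lonp1 fall in no annotated gene. Both strands were searched. A match describes letters, not binding. The ATF4-type element TGATGCAA was in 0.895% of all windows and in none of the windows of these 8 genes, which says only that the letters were not there.

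Total counts ran from 1775152 to 5917505 per library, WT replicate 2 being the shallowest. Rn45s, the gene of the ribosomal RNA precursor, held 41.9%, 39.8% and 19.6% of the counts in WT replicates 1, 2 and 3 and between 14.6% and 17.6% in the knockout libraries. The targeted gene, Pml, had 36, 35 and 44 reads in WT replicates 1 to 3 and 14, 23 and 5 in knockout replicates 1 to 3. Scaled to library size, this was 10.7, 28.0 and 9.99 CPM in WT and 2.11, 3.79 and 0.746 CPM in the knockout. The genotypes did not overlap, as for 11.3% of all tested genes with the knockout lower. The Pml log2 fold change was -2.81 (SE 0.661, edgeR quasi-likelihood adjusted p 0.197). Pml passed by DESeq2 (adjusted p 0.0052), which called 2.68% of all tested genes. A 3′ tag outside the deleted part would check nothing, and that part is not named. Neural stem cell markers summed to between 5667 and 7456 CPM (counts scaled to library size) in WT and between 6793 and 8382 in the knockout, and each of the 10 genes of that list had reads. Erythroid markers summed to at most 0.595 CPM in any library. Of 8 tested hepatocyte markers, 8 had a fold change below 0, and none of the 10 listed was at 0 in all libraries. Their sum was 325, 457 and 95.1 CPM in WT replicates 1, 2 and 3 against 41.4 to 61.7 in the knockout libraries. The part of these differences between libraries in the results below was not tested.

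None of the 10 genes passed in the comparison of Pml knockout with WT (edgeR quasi-likelihood test, Benjamini-Hochberg adjusted p under 0.05 over 11317 tested genes). All 10 were deep enough to be tested. Over all genes, 1 passed (0.00884% of those tested), Wdfy1, which is none of the 10. Its edgeR adjusted p, 0.0498, lay just under the threshold. The log2 fold change was below 0 for 6 of the 10 genes (50.3% of all tested genes) and above 0 for 4 (49.7%), with a median of -0.28 against -0.0058 over all tested genes. The 6 were Phb, Phb2, Hspd1, Hspe1, Trap1 and Clpp, and the 4 were Hspa9, Lonp1, Clpx and Afg3l2. When libraries were scaled by their totals alone, the median of all genes moved to 0.43 and that of the 10 genes to 0.16, with 4 below and 6 above 0. Unadjusted p-values were under 0.05 for 2 of the 10 genes, both with less signal in the knockout, against 15.9% of all tested genes in either direction, 9.19% in that direction and 6.7% in the other. WT and knockout libraries did not overlap for 5 of the 10, against 23.6% of all tested genes. Of the 5, the knockout was above WT for 2 (12.3% of all tested genes) and below for 3 (11.3%). Summed over the 10 genes, the level was 1554, 1434 and 1650 CPM in WT replicates 1 to 3 and 1474, 1144 and 1396 in the knockout, so that the genotypes overlapped in the total.

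**Figure D1:**
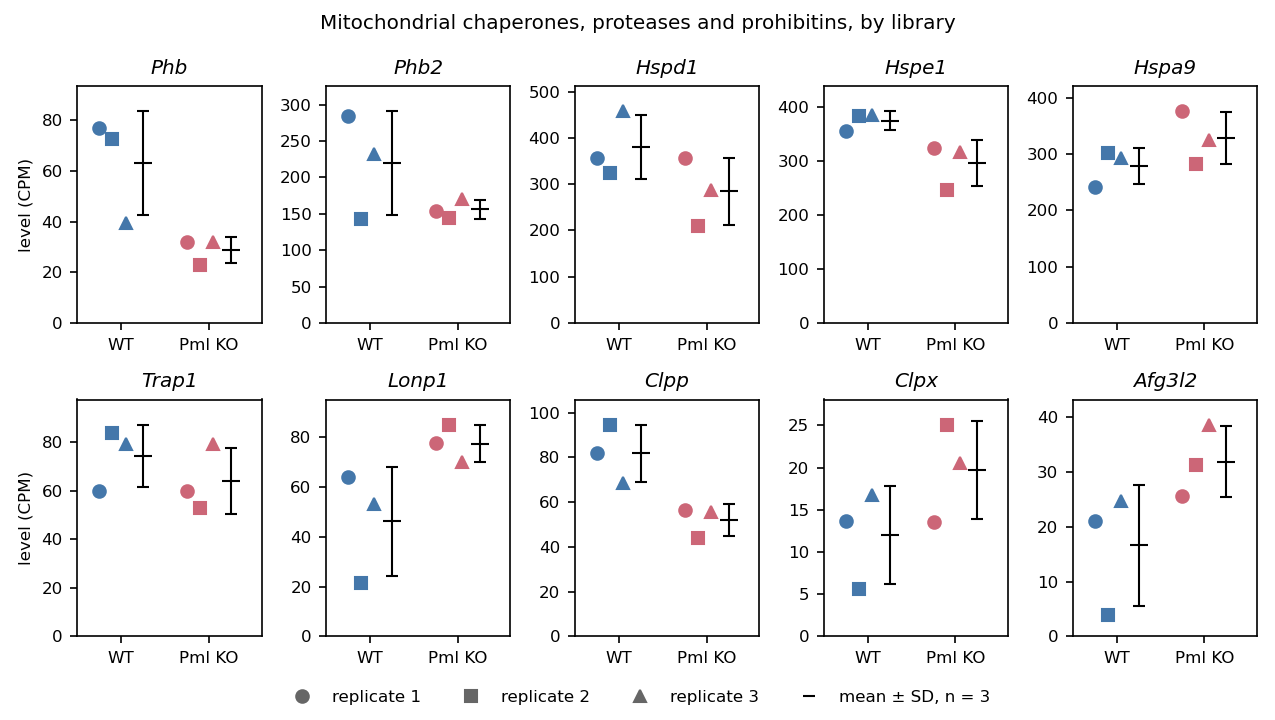
Level of each of the 10 genes in CPM (linear axis from 0, own scale per gene) in the 3 WT (blue) and 3 Pml knockout (red) libraries; marker shapes are replicate numbers, and black bars are mean ± SD (n = 3). The genotypes separate for Phb, Hspe1, Clpp, Lonp1 and Afg3l2. WT replicate 2 is the lowest point for Lonp1, Clpx, Afg3l2 and, narrowly, Phb2, and the highest for Clpp and Trap1.

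Phb, the smaller prohibitin, had the largest difference of the 10. It is encoded on chromosome 11 (95666957 to 95680773, plus strand, GRCm38, ENSMUSG00000038845.11). Reads numbered 258, 91 and 174 in WT replicates 1, 2 and 3 and 211, 139 and 214 in the knockout replicates. Scaled to library size, this was 76.8, 72.7 and 39.5 CPM in WT and 31.7, 22.9 and 31.9 CPM in the knockout. WT replicates 1 and 2 lay close together and high, while WT replicate 3 stood only a little above the knockout libraries. The same WT replicates 1 and 2 had the higher Rn45s shares and hepatocyte sums. Means were 63.0 ± 20.5 against 28.9 ± 5.15 CPM (SD, n = 3 each), a log2 fold change of -1.12 (SE 0.331, 95% interval -1.85 to -0.38). The unadjusted p was 0.00695 and the edgeR adjusted p 0.220. By unadjusted p, Phb ranked 345 of 11317 genes. With library totals it was at -0.60 (edgeR adjusted p 0.356). Phb passed in 2 alternatives. By limma voom with library quality weights its log2 fold change was -1.24 (adjusted p 0.0126), a setting that called 11% of all tested genes. By edgeR without WT replicate 3 it was -1.36 (adjusted p 0.0180), where 13% of all tested genes passed. It did not pass by DESeq2 (adjusted p 0.0631), which called 2.68%, or by the exact test of edgeR (0.0621), which called 3.17%. With WT replicate 3 as the lone WT library, assumed to vary like the knockout libraries, the log2 fold change was -0.46 (edgeR adjusted p 0.435), and none of the 10 genes passed, against 1.17% of all tested genes. None passed without WT replicate 2 either, against 0.00856%, or with the replicate number as a block, against 0.0177%.

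Phb2, the partner that alternates with Phb in the prohibitin ring, did not follow it in every library. It had 284, 142 and 232 CPM in WT and 154, 144 and 170 CPM in the knockout. Here WT replicate 2 sat at the level of the knockout libraries, and the genotypes overlapped. The log2 fold change was -0.49 (SE 0.293, 95% interval -1.14 to 0.16), with an edgeR adjusted p of 0.427. Phb2 was at -0.71 without WT replicate 2 (adjusted p 0.188), at -0.26 without WT replicate 1 (adjusted p 0.753) and at -0.061 with library totals (adjusted p 0.940). The annotated end of Phb2 lies under an antisense gene, Gm15884, and the strand setting of the counts is not given in the sources used here, so reads of the 2 cannot be told apart.

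The ratio of Phb to Phb2 reads within a library does not depend on library scaling. Trends of a library over transcript length or GC content, described below, were not removed from this ratio or the other ratios. As log2 it was -1.88, -0.96 and -2.55 in WT replicates 1 to 3 and -2.28, -2.65 and -2.41 in the knockout. WT replicate 3 lay inside the knockout range and WT replicate 2 far above it. The means, -1.80 ± 0.795 and -2.45 ± 0.186 (SD, n = 3 each), differed by -0.65, with an exact two-sided permutation p of 0.3 (0.4 after adjustment over the 4 ratios tested). With 3 libraries against 3 the smallest p this test can give is 0.1. Without WT replicate 2 the difference was -0.23.

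The 2 chaperonin genes both had log2 fold changes below 0, and neither passed. Hspd1, the Hsp60 subunit (chromosome 1, 55077835 to 55088243, minus strand), had 356, 325 and 458 CPM in WT and 356, 210 and 287 CPM in the knockout. Hspe1, the Hsp10 lid (chromosome 1, 55088132 to 55091307, plus strand), had 354, 383 and 385 CPM in WT and 323, 246 and 317 CPM in the knockout. Knockout replicate 2 was the lowest library for both genes. The genotypes overlapped for Hspd1 and did not for Hspe1, whose 3 WT libraries agreed closely. The log2 fold changes were -0.42 for Hspd1 (SE 0.286, 95% interval -1.05 to 0.22, edgeR adjusted p 0.490) and -0.34 for Hspe1 (SE 0.247, 95% interval -0.89 to 0.21, edgeR adjusted p 0.510). Hspd1 was at -0.25 without WT replicate 3 and at -0.23 without knockout replicate 2, and Hspe1 at -0.22 without the latter. With library totals alone they were -0.019 and 0.10, so that the sign for Hspe1 depends on the scaling. Hspd1 has annotated processed pseudogenes, and its reads are uncertain to the extent that the authors' counting split them.

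The log2 ratio of Hspd1 to Hspe1 reads was 0.0080, -0.24 and 0.25 in WT replicates 1 to 3 and 0.14, -0.23 and -0.14 in the knockout. The libraries of the 2 genotypes were interleaved, and the WT libraries alone spanned the whole range. The difference of the means was -0.083 (exact two-sided permutation p = 0.7, 0.7 after adjustment, n = 3 each). It was 0.038 without WT replicate 3 and -0.20 without WT replicate 2. Among 11316 other tested genes, Hspe1 ranked 103 in likeness to Hspd1, by the root mean square difference of log2 CPM centred on each gene's mean over the 6 libraries (0.183, against a median of 0.603). With single libraries left out the rank lay between 102 and 272. Genes near to Hspd1 included Gareml, Hint1, Gmps and Mrpl1, at 0.0661 to 0.0902. Phb2 ranked 2845 in likeness to Phb (0.567, against a median of 0.798), and 444 without WT replicate 2. The genes nearest to Phb were Ap2a1, Rnps1, Tmem132a, Taf1c and Aaas.

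Hspa9, the matrix Hsp70 also named mortalin, had the smallest difference of the genes above 0. It had 242, 301 and 293 CPM in WT and 376, 283 and 326 CPM in the knockout, with knockout replicate 2 inside the WT range. The log2 fold change was 0.24 (SE 0.251, 95% interval -0.32 to 0.79, edgeR adjusted p 0.658). It was 0.16 without WT replicate 1, 0.14 without knockout replicate 1 and 0.67 with library totals. Trap1, the mitochondrial Hsp90, had 59.8, 83.9 and 79.4 CPM in WT and 60.0, 52.8 and 79.2 CPM in the knockout. The Trap1 libraries of both genotypes covered nearly the same range. Its log2 fold change was -0.21 (SE 0.278, 95% interval -0.83 to 0.40, edgeR adjusted p 0.723), and it was 0.23 with library totals and 0.0091 by voom with quality weights. Leaving out single libraries moved it between -0.39 (knockout replicate 3) and -0.086 (knockout replicate 2). The annotated end of Trap1 overlaps Dnase1 on the other strand, and Dnase1 was at 0 reads in all 6 libraries.

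Of the 4 protease genes, Lonp1, Clpx and Afg3l2 had log2 fold changes above 0 and Clpp below. Lonp1, a soluble matrix protease that also binds mitochondrial DNA (chromosome 17, 56614297 to 56626887, minus strand), had 63.7, 21.6 and 52.9 CPM in WT and 77.3, 84.8 and 69.8 CPM in the knockout. WT replicate 2, with 27 reads (exact Poisson 95% interval 17.8 to 39.3, counting error only), lay well below the other WT libraries. The groups did not overlap, and the log2 fold change was 0.72 (SE 0.364, 95% interval -0.089 to 1.53, edgeR adjusted p 0.361). Without WT replicate 2 it was 0.42 (adjusted p 0.396).

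Afg3l2, a subunit of the m-AAA protease of the inner membrane, had the largest positive value. It had 21.1, 4.00 and 24.7 CPM in WT and 25.7, 31.3 and 38.6 CPM in the knockout. The WT replicate 2 value rests on 5 reads (exact Poisson 95% interval 1.62 to 11.7), and the other WT libraries stood just under the lowest knockout library. The log2 fold change was 0.86 (SE 0.489, 95% interval -0.23 to 1.95, edgeR adjusted p 0.406), and 0.48 without WT replicate 2 (adjusted p 0.430). The m-AAA protease has further subunits, which lay below 0. Spg7, which pairs with Afg3l2, had 108, 131 and 110 CPM in WT and 98.5, 86.7 and 98.6 CPM in the knockout, with a log2 fold change of -0.30 (SE 0.240, edgeR adjusted p 0.557). Afg3l1, a close relative of Afg3l2 that is active in mouse, had 87.8, 133 and 104 CPM in WT and 85.3, 72.6 and 69.7 CPM in the knockout, without overlap (log2 fold change -0.51, SE 0.263, edgeR adjusted p 0.372). With library totals Afg3l1 was at -0.048 and Spg7 at 0.17. Without WT replicate 2, Afg3l1 was at -0.33. The annotated end of Spg7 is shared with Gm20388 on the same strand.

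Within libraries, the log2 ratio of Afg3l2 to Spg7 reads was -2.35, -4.90 and -2.15 in WT replicates 1 to 3 and -1.93, -1.47 and -1.35 in the knockout. Of the 4 ratios tested, this was the one whose genotypes did not overlap. The difference of the means was 1.55, with an exact two-sided permutation p of 0.1, the smallest that 3 against 3 libraries can give, and 0.4 after adjustment. Without WT replicate 2 the difference was 0.66.

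Clpp, the peptidase chamber of the ClpXP protease (chromosome 17, 56990305 to 56996188, plus strand), had 82.1, 94.3 and 68.8 CPM in WT and 56.6, 44.0 and 55.6 CPM in the knockout. All 3 WT libraries were above all 3 knockout libraries. The log2 fold change was -0.64 (SE 0.263, 95% interval -1.23 to -0.060), with an unadjusted p of 0.0337 and an edgeR adjusted p of 0.279. With library totals it was at -0.16 (edgeR adjusted p 0.769). Clpx, the unfoldase that feeds Clpp, had 13.7, 5.60 and 16.8 CPM in WT and 13.54, 25.1 and 20.6 CPM in the knockout. Knockout replicate 1 fell among the WT libraries, and WT replicate 2 rested on 7 reads (exact Poisson 95% interval 2.81 to 14.4). The Clpx log2 fold change was 0.65 (SE 0.430, 95% interval -0.31 to 1.61, edgeR adjusted p 0.476), and 0.37 without WT replicate 2.

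The log2 ratio of Clpp to Clpx reads was 2.57, 3.98 and 2.03 in WT and 2.06, 0.81 and 1.43 in the knockout. WT replicate 3 and knockout replicate 1 were nearly equal, so the genotypes overlapped slightly. The means differed by -1.43 (exact two-sided permutation p = 0.2, 0.4 after adjustment, n = 3 each), and by -0.87 without WT replicate 2. Clpx ranked 9342 of 11316 in likeness to Clpp. The nearest genes to Clpp were Sharpin, Grpel1, Hypk, Atp5o and Ndufc1. Grpel1, at a root mean square difference of 0.0615, encodes the nucleotide exchange factor of Hspa9.

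**Figure D2:**
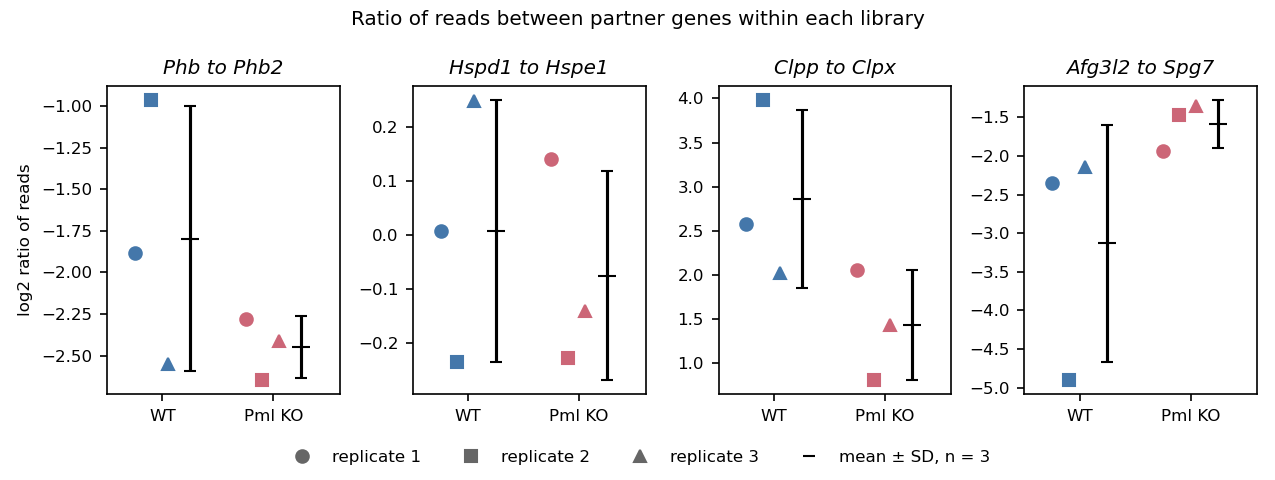
Log2 ratio of reads between partner genes within each library (own scale per panel, pseudocount 0.5), for WT (blue) and Pml knockout (red); shapes are replicate numbers and black bars mean ± SD (n = 3). Hspd1 to Hspe1 is interleaved between genotypes, Afg3l2 to Spg7 does not overlap, and WT replicate 2 is the library farthest from the knockout mean for Phb to Phb2, Clpp to Clpx and Afg3l2 to Spg7.

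Transcript length moved with the direction of these differences. The 4 genes above 0 have the longest annotated transcripts of the 10, from 2885 nt (Clpx) to 3094 nt (Afg3l2). The 6 genes below 0 range from 774 nt (Hspe1) to 2423 nt (Hspd1). Across 10921 tested genes with an annotated length, the median log2 fold change was -0.27 among the shortest transcripts, up to 2074 nt, -0.074 up to 3286 nt, 0.039 up to 4869 nt and 0.22 beyond, in 4 groups of about equal size. Spearman's rho between length and log2 fold change was 0.26 across these genes, which are not independent and share the 6 libraries. In the shortest group WT replicates 1 and 2 lay 0.28 and 0.19 above WT replicate 3 (median log2 difference), and in the longest group 0.20 and 0.22 below it.

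With each library's trend over length and GC content removed, a setting chosen after the data were seen, none of the 10 genes passed and the signs were kept. Phb went to -0.69 (edgeR adjusted p 0.317), Clpp to -0.18 (adjusted p 0.741) and Phb2 to -0.080 (adjusted p 0.931). Lonp1 stood at 0.96 (adjusted p 0.335), Afg3l2 at 0.92 (0.433), Clpx at 0.54 (0.578) and Hspd1 at -0.48 (0.432). Hspe1 stood at -0.14 (0.810), Trap1 at -0.11 (0.880) and Hspa9 at 0.10 (0.878). The values of 7 genes (Phb, Phb2, Clpp, Clpx, Hspe1, Trap1 and Hspa9) lay nearer 0 than before, and those of Lonp1, Afg3l2 and Hspd1 lay farther from it. Whether length or GC content has a part in the differences was not tested further.

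**Figure D3:**
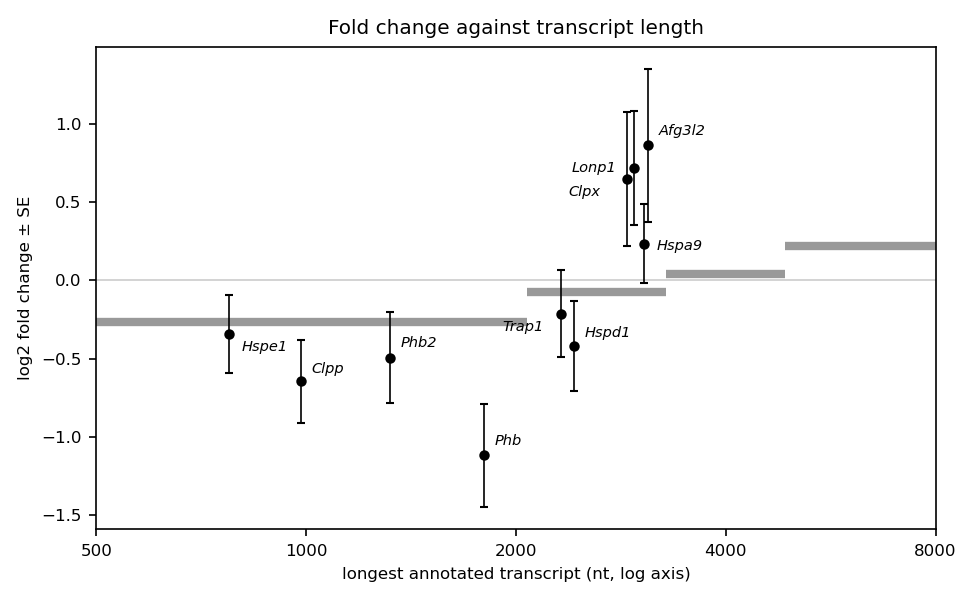
Log2 fold change (± SE, Pml knockout against WT) of the 10 genes against the length of the longest annotated transcript (log axis); grey bars are medians of all tested genes in 4 groups of length, drawn as far as the axis reaches. The 4 genes above 0 sit between 2885 and 3094 nt, and the 6 below 0 at 2423 nt or less.

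**Figure D4:**
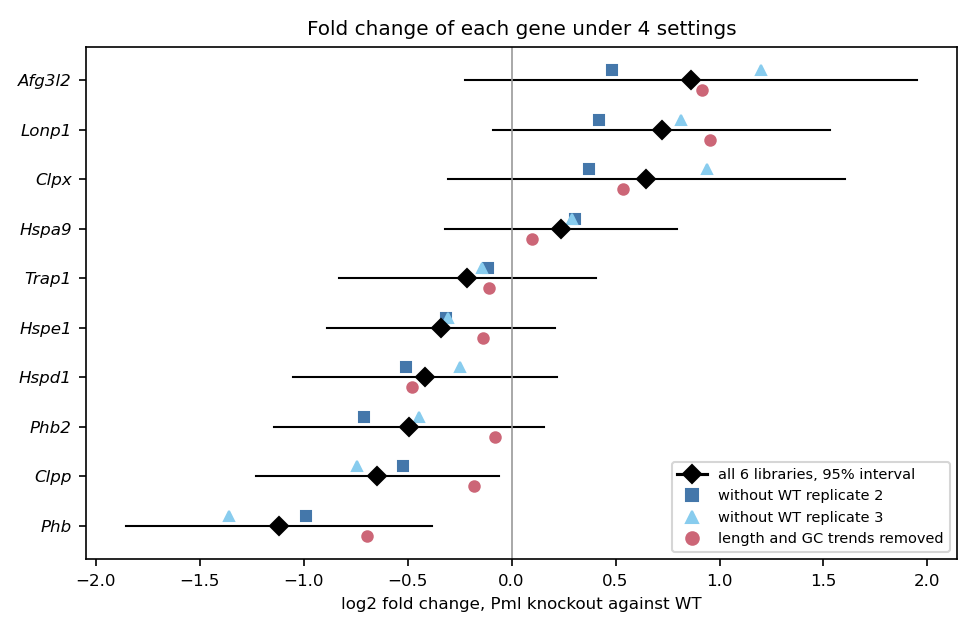
Log2 fold change of each gene with all 6 libraries (black diamonds, 95% interval), without WT replicate 2 (dark blue squares), without WT replicate 3 (light blue triangles) and with length and GC trends removed (red circles). The intervals of Phb and Clpp do not reach 0, and those of the other 8 genes do.

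The wider machinery of mitochondrial protein quality was read from fixed lists, beside a median of -0.0058 over all tested genes. Genes named below from a list had its smallest unadjusted p, or are marked as named after their values were seen. That choice favours genes whose genotypes do not overlap, which held for 23.6% of all tested genes. None of the members of these lists passed in the reported edgeR quasi-likelihood fit, but some named below passed in alternatives. Stip1 passed by DESeq2 (adjusted p 0.024), the exact test of edgeR (0.023) and limma voom with quality weights (0.0047). Over all tested genes, those settings called 2.68%, 3.17% and 11%. Hspa1b (0.043) and Calr (0.044) passed by DESeq2. Chchd6, Cct7, Pdia4 and Calr passed under quality weights (adjusted p 0.024, 0.013, 0.028 and 0.00965). Of 9 co-chaperone genes, 3 had a log2 fold change above 0 and 6 below, with a median of -0.23. Dnajc15, a J-domain protein of the import motor, had means of 48.3 ± 21.2 (WT) and 23.8 ± 4.32 CPM (knockout; SD, n = 3 each), a log2 fold change of -0.996 (SE 0.356, edgeR adjusted p 0.241). The Dnajc15 value was -0.59 without WT replicate 2. Clpb, a disaggregase of the intermembrane space, had 44.9, 158 and 58.6 CPM in WT and 41.7, 38.8 and 45.0 CPM in the knockout, with a log2 fold change of -1.04 (SE 0.436, edgeR adjusted p 0.291) and WT replicate 2 far above the rest. Without that library the Clpb value was -0.30. Grpel1 had 59.5 ± 9.79 and 39.8 ± 5.32 CPM, without overlap (log2 fold change -0.57, SE 0.273, edgeR adjusted p 0.337).

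Of 15 other mitochondrial proteases and peptidases, 6 lay above 0 and 9 below, with a median of -0.092. Pmpcb, the catalytic subunit of the peptidase that removes import presequences, had 19.0, 7.99 and 21.1 CPM in WT and 40.5, 67.4 and 69.2 CPM in the knockout. Every knockout library was well above every WT library, and the log2 fold change was 1.82 (SE 0.391, edgeR adjusted p 0.197). The knockout was above WT without overlap for 12.3% of all tested genes. Pmpcb did pass by DESeq2 (adjusted p 0.00410), the exact test of edgeR (0.00330), limma voom under quality weights (0.00965) and edgeR without WT replicate 3 (0.0186). Over all tested genes, those settings called 2.68%, 3.17%, 11% and 13%. With WT replicate 3 as the lone WT library the Pmpcb value was 1.48. Pmpca, the subunit that pairs with Pmpcb, had 35.1, 40.8 and 36.8 CPM in WT and 33.9, 36.9 and 37.9 CPM in the knockout (log2 fold change -0.047, edgeR adjusted p 0.946); it is named after its values were seen. Parl, a rhomboid protease of the inner membrane, had 77.8 ± 15.0 and 43.5 ± 8.74 CPM (log2 fold change -0.83, SE 0.283, edgeR adjusted p 0.239).

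Prohibitin partners and cristae scaffolds were split, with 5 of 9 above 0 and 4 below and a median of 0.0056. Chchd6, a subunit of the MICOS complex that shapes cristae junctions, had 53.6 ± 26.3 and 21.8 ± 6.18 CPM (log2 fold change -1.27, SE 0.407, edgeR adjusted p 0.234). Immt, the core of that complex, had 303 ± 41.9 and 212 ± 44.1 CPM (-0.51, SE 0.265, edgeR adjusted p 0.372). The Chchd6 value was -0.84 without WT replicate 2. Letm1, an inner membrane protein of ion homeostasis, had 86.9 ± 0.481 and 58.6 ± 5.88 CPM (-0.57, SE 0.243, edgeR adjusted p 0.296). Chchd6, Immt and Letm1, picked by smallest p, did not overlap between genotypes. They were the 3 of 9 genes without overlap, all with the knockout lower, against 11.3% of all tested genes in that direction.

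Regulators of the response did not move alike across the WT libraries. Of 10 tested, 3 lay above 0 and 7 below, with a median of -0.64. Atf5, the transcription factor most tied to this response, had 92.0, 334 and 19.1 CPM in WT and 61.1, 55.4 and 28.6 CPM in the knockout. Ddit3, which encodes CHOP, had 28.3, 333 and 9.99 CPM in WT and 47.4, 36.4 and 27.6 CPM in the knockout, and Atf4 had 167, 715 and 186 CPM in WT and 303, 234 and 160 CPM in the knockout; both are named after their values were seen. WT replicate 2 was the highest library for Atf5, Ddit3 and Atf4, and the genotypes overlapped for all 3. The Atf5 log2 fold change was -1.59 (SE 0.770, edgeR adjusted p 0.342), and -0.17 with WT replicate 2 left out. The median of the list was 0.15 without WT replicate 2. Its sign thus turned with that library left out, with 5 genes above 0 and 5 below. With WT replicate 3 as the lone WT library it was 0.83, and without WT replicate 3 it was -1.03. In that same WT replicate 2, Hspd1, Hspe1, Hspa9 and Phb were within the range of the other 5 libraries. Clpp (94.3 CPM) and Trap1 (83.9 CPM) were the highest of all 6. Phb2 was the lowest by a narrow margin (142 CPM, against 144 in knockout replicate 2). Lonp1, Clpx and Afg3l2 were also the lowest of all 6, at 27, 7 and 5 reads.

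Hsf1, the heat shock factor, had 3.57, 0.799 and 5.90 CPM in WT and 11.9, 9.40 and 10.7 CPM in the knockout. The genotypes did not overlap, at low counts (log2 fold change 1.48, SE 0.543, edgeR adjusted p 0.245). Ubl5, a ubiquitin-like protein known from this response in worms, had 173 ± 85.6 and 96.2 ± 4.99 CPM (log2 fold change -0.84, SE 0.368, edgeR adjusted p 0.306), and its log2 fold change was -0.44 without WT replicate 2. With WT replicate 3 as the lone WT library the Ubl5 value was 0.20.

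Import, cytosolic and endoplasmic reticulum chaperone genes were set beside the 10 genes, with no test of a difference between lists. Of 21 tested import genes of the TOM and TIM complexes, 9 lay above 0 and 12 below (median -0.19). Timm13, a small carrier chaperone of the intermembrane space, had 139 ± 32.0 and 71.2 ± 17.4 CPM (log2 fold change -0.96, SE 0.289, edgeR adjusted p 0.220). Timm22, the channel of the carrier translocase, had 60.3 ± 21.2 and 33.0 ± 4.70 CPM (-0.85, SE 0.319, edgeR adjusted p 0.249), and its value was -0.55 without WT replicate 2. In the other direction Timm21, a subunit of the presequence translocase, was counted 12, 3 and 14 times in WT replicates 1 to 3 against 39, 43 and 84 times in knockout replicates 1 to 3, a log2 fold change of 1.43 (SE 0.513, edgeR adjusted p 0.241). Timm13, Timm22 and Timm21, picked by smallest p, did not overlap between genotypes. Of the 21 import genes, 1 did not overlap with the knockout higher and 7 with it lower, against 12.3% and 11.3% of all tested genes. Of 22 cytosolic chaperone genes, 7 lay above 0 and 15 below (median -0.43). Among them Stip1, the Hsp70-Hsp90 organizing protein, had 189 ± 90.9 and 68.3 ± 6.19 CPM (-1.46, SE 0.378, edgeR adjusted p 0.208), and Cct7, a subunit of the cytosolic chaperonin, had 443 ± 119 and 234 ± 31.6 CPM (-0.92, SE 0.288, edgeR adjusted p 0.228). Hspa1b, an inducible Hsp70, lay above 0 at low counts, 1, 4 and 3 reads per WT library against 24, 163 and 30 per knockout library. Its log2 fold change was 3.50 (SE 1.06, edgeR adjusted p 0.220), and it was at 1.89 without knockout replicate 2. Hspa1b has a near-identical copy, Hspa1a, so its reads are uncertain. Stip1, Cct7 and Hspa1b, again picked by smallest p, did not overlap between genotypes. Of the 22 cytosolic genes, 1 did not overlap with the knockout higher and 6 with it lower. Of 16 endoplasmic reticulum chaperone genes, 9 lay above 0 and 7 below (median 0.12). Pdia4, a protein disulfide isomerase, had 110, 220 and 87.6 CPM in WT and 64.4, 62.3 and 61.6 CPM in the knockout, without overlap (log2 fold change -1.14, SE 0.349, edgeR adjusted p 0.225). The Pdia4 value was -0.64 without WT replicate 2. Dnajb9, a co-chaperone of BiP, lay above 0, with 4.52 ± 2.11 and 11.5 ± 3.07 CPM and no overlap (1.33, SE 0.490, edgeR adjusted p 0.245). Calr, the lectin chaperone calreticulin, had 1920 ± 1446 and 595 ± 135 CPM, with genotypes that overlapped (-1.69, SE 0.526, edgeR adjusted p 0.228). The Calr value was -0.91 without WT replicate 2 and -0.090 with WT replicate 3 as the lone WT library.

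The authors' deposited table gives the same signs for all 10 genes and calls none of them at an adjusted p under 0.05, where it calls 363 of 12349 genes (2.94%). For Phb the authors' deposited table lists a log2 fold change of -1.08, a p-value of 0.00342 and an adjusted p of 0.0765. For Lonp1 the authors' deposited table has 0.744 with an adjusted p of 0.299, and for Afg3l2 it has 0.896 with 0.315.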

How the data were processed

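RNA of 3 WT and 3 Pml knockout neural stem cell libraries was sequenced with a 3′ tag kit, per the labels' protocols. Per the submitters' processing notes, the authors worked on build mm10 with FastQC, HISAT2, HTSeq and edgeR. Their versions, the annotation and the strand of counting: not given in the sources used here. Raw counts for 24421 gene symbols were deposited, of which 8329 symbols were at 0 throughout. The authors' normalized counts are a score rounded to whole numbers that was not used here. Per the file headers, the authors' log2 fold changes and p-values (raw and adjusted) cover 12349 genes. Columns were matched to samples by library name, and 0 per-sample columns were unmapped.

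Counts were fitted in R 4.3.3 with edgeR 4.0.16 (filterByExpr, count minimum 10, total minimum 15, leaving 11317 genes; TMM factors; robust quasi-likelihood F test, no covariate). CPM use the TMM factors, and log2 CPM a prior count of 2. The SE is the log2 fold change divided by the square root of F, and intervals use its t quantile at the 95% level. The test was tried on simulated counts that held no length trend and no Rn45s difference between libraries. How it behaves with these was not tested. Ratios used a pseudocount of 0.5 and scipy 1.17.1. Alternatives used DESeq2 1.42.0 and limma 3.58.1. Transcript lengths and coordinates are from GENCODE M21 (GRCm38), matched for 96.5% of tested genes. Promoter windows are RefSeq's for GRCm38.p6.

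The 10 genes, the lists and the tests were chosen with earlier results of these data known. Named beside the 10 genes were Pml, Rn45s, Spg7, the genes nearest to Hspd1, Phb and Clpp, and from each list up to 3 with the smallest p; 1 of the nearest genes is not reported here. Exact intervals cover counting error only, since no molecular identifiers are named.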

Additional observations from a re-analysis of the deposited data

How the results depend on the processing

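The count of the 10 genes that passed was 0 in the reported analysis and in all but 2 alternatives. It was 1, Phb, by voom with library quality weights, and it ranged from 0 to 1 with single libraries left out, being 1 without WT replicate 3. Over all genes the count was 1. It was 0 with DESeq2's size factors, library totals, a mean of at least 5 CPM, limma voom or without the Rn45s row. It was 3 with no count filter, 1242 by limma voom under quality weights, 314 by DESeq2, 359 by the exact test of edgeR and 142 without both WT replicates 1 and 2, and it ranged from 0 to 1526 with single libraries left out, the highest being without WT replicate 3. The lowest values rest on few reads: WT replicate 2 had 5, 7 and 27 reads for Afg3l2, Clpx and Lonp1.

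With the replicate number as a block the count over all genes was 2, and it was 0 of the 10 genes. Same-numbered libraries deviated from their group means with correlations of -0.003, 0.067 and 0.188, the last being the highest of any pair. WT replicate 1 correlated best with knockout replicate 3 (0.040). Deviations from a mean of 3 libraries are tied to each other, so these correlations cannot decide pairing. The labels do not state that the numbers pair the samples, so they were not taken to.

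With single libraries left out, the difference in log2 ratio ranged from -1.02 to -0.23 for Phb to Phb2, from -1.84 to -0.87 for Clpp to Clpx, from 0.66 to 2.04 for Afg3l2 to Spg7, and from -0.20 to 0.038 for Hspd1 to Hspe1, the last value, with the sign reversed, being without WT replicate 3. Signs also reversed with library totals for Hspe1 (0.10), Trap1 (0.23) and Spg7 (0.17), by voom with quality weights for Trap1 (0.0091), and without both WT replicates 1 and 2 for Ubl5 (0.20) and Atf5 (1.34). The cause was not tested. No other sign among the 10 genes reversed.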
